A study of Rattus norvegicus with 16 samples.

Results

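The genes described here are those that encode the subunits, assembly chaperones and regulators of the proteasome, the protein complex that degrades ubiquitin-tagged proteins. Members were taken by symbol, as every gene listed in all 16 count files whose name starts with Psm, a letter from a to g and a number, in any case of letters. The rule gave 50 genes of 18031 listed in all 16 files. By role these were 7 alpha subunits and 7 constitutive beta subunits of the core particle, 3 immunoproteasome beta subunits, 6 ATPases and 11 other subunits of the regulatory particle, 4 chaperones of core assembly, 3 chaperones of regulatory particle assembly, 4 activator genes, the inhibitor Psmf1, the testis form Psma8, the thymus form Psmb11, the near copy Psma3l and Psmc3ip, which carries the name but is not a proteasome subunit. Every library came from a control animal, so the values describe how these genes varied among 16 control rats and not how they responded to an agent.

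The blood was whole blood, drawn by cardiac puncture from male Sprague-Dawley rats of Charles River stock aged 85 to 90 days, and globin transcripts were depleted before sequencing. Saline was injected 4 times, 1 ml/kg each and 2 h apart, and blood was taken 3 h after the final dose. The labels give a single group, Saline Control, with n = 16. The deposited files carry 1 of 6 codes in their names, whose meaning is not given in the sources used here. Per the study's methods the control animals were dosed in separate experiments at different times, and the labels do not say which animal was in which, so differences between codes and between experiments cannot be told apart. The codes are written here as A (controls 1 to 3), B (controls 4, 5, 7, 8 and 10), C (6 and 9), D (11 to 14), E (15) and F (16).

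In the core particle, rings of alpha subunits gate a chamber in which the beta subunits Psmb5, Psmb6 and Psmb7 cut peptide chains. In lymphoid and myeloid cells, and elsewhere after interferon exposure, Psmb8, Psmb9 and Psmb10 take the places of Psmb5, Psmb6 and Psmb7 and form the immunoproteasome, which yields many of the peptides presented on MHC class I. The regulatory particle binds ubiquitin chains and unfolds the substrate with its ring of ATPases, the PA28 activator of Psme1 and Psme2 can bind the core in its place, and reticulocytes, young red cells that still hold RNA, degrade many of their proteins through this system as they mature.

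The libraries held 21466776 to 31189549 counts, and globin genes still took 2.96% to 15.5% of them. Whole blood markers of red cells, T cells, B cells, monocytes and neutrophils had counts in every library, apart from 1 of the 4 red cell genes, which was not found. Several libraries stood apart. Liver markers summed to 409072 normalized counts in control 2, against 14688 in the next library, control 8. Thymus markers summed to 5770 and fat markers to 3043 in control 12, against 59.7 and 336 in the next libraries. Control 8 had the highest neutrophil and monocyte sums and the lowest T cell and B cell sums, and control 10 had the highest red cell sum. Control 10 also had the highest heart muscle sum, 258 against 35.3 in the next library, the second highest fat sum, 336, and the lowest platelet sum, 5580 against a median of 32272. Normalized counts are given below, that is counts divided by a median-ratio size factor. They are not per unit of transcript length, so the level of 1 gene is never set against that of another.

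Together the 50 genes took 0.265% ± 0.0311 (SD, n = 16) of all counts, with a median of 0.264%. The lowest share was 0.221% in control 16 and the highest 0.340% in control 12. With globin counts left out of the total the share was 0.293% ± 0.0300 (SD, n = 16), and controls 16 and 12 were again at the ends. Psmf1, which encodes the proteasome inhibitor PI31, gave 11.9% ± 4.06 (SD, n = 16) of the members' counts. Its part ran from 5.70% in control 9 to 23.6% in control 10. Without Psmf1 the members' share was 0.234% ± 0.0330 (SD, n = 16), and control 10 had the lowest value, 0.181%.

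Most proteasome genes varied little among the animals. Of the 45 members with a mean of at least 100 normalized counts, 35 (77.8%) had a coefficient of variation (CV, the SD as a percentage of the mean over 16 libraries) below 24.8%, the median of all 8672 genes at that level. A CV above 30% was seen in 7 members (15.6%) and in 3161 of the 8672 genes (36.5%). The median CV was 20.3% for the alpha subunits, 19.3% for the constitutive beta subunits, 18.1% for the immunoproteasome subunits, 16.7% for the regulatory ATPases and 17.1% for the other regulatory subunits. Jackknife SEs of these medians lay between 2.20 and 3.90 percentage points, so the order of the classes was within error. On total-count CPM the immunoproteasome median was 28.0%, the highest of the 5 classes, with the alpha subunits at 23.8% and the constitutive beta subunits at 18.6%.

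The steadiest member was Psmd2, a scaffold subunit of the regulatory particle, with 928 in control 7, a median of 1183 and 1287 in control 15. Its CV was 7.82%, where counting error alone would give 2.88%. Psmc4 and Psmc3, ATPases, followed in the regulatory particle with CVs of 11.3% and 11.6%, and Psmd7 had 11.3%. At the other end was Psmf1 with a CV of 49.5%. It had 3779 normalized counts in control 9, a median of 7136 and 21823 in control 10, a 5.78-fold range in which control 10 stood well above the second highest library, control 8, at 11064. Between them lay the members above 30%: Psmg4, a core assembly chaperone, with a CV of 30.5%, Psmb6 with 33.1%, Psme4, the activator PA200, with 34.0%, Psmd8 with 36.5%, Psmd4, a ubiquitin receptor, with 37.7% and Psmd9, a chaperone of the ATPase ring, with 38.7%. The plot of spread against level shows these 7 above the bulk of the members, at values that many genes outside the family also had.

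**Figure D1:**
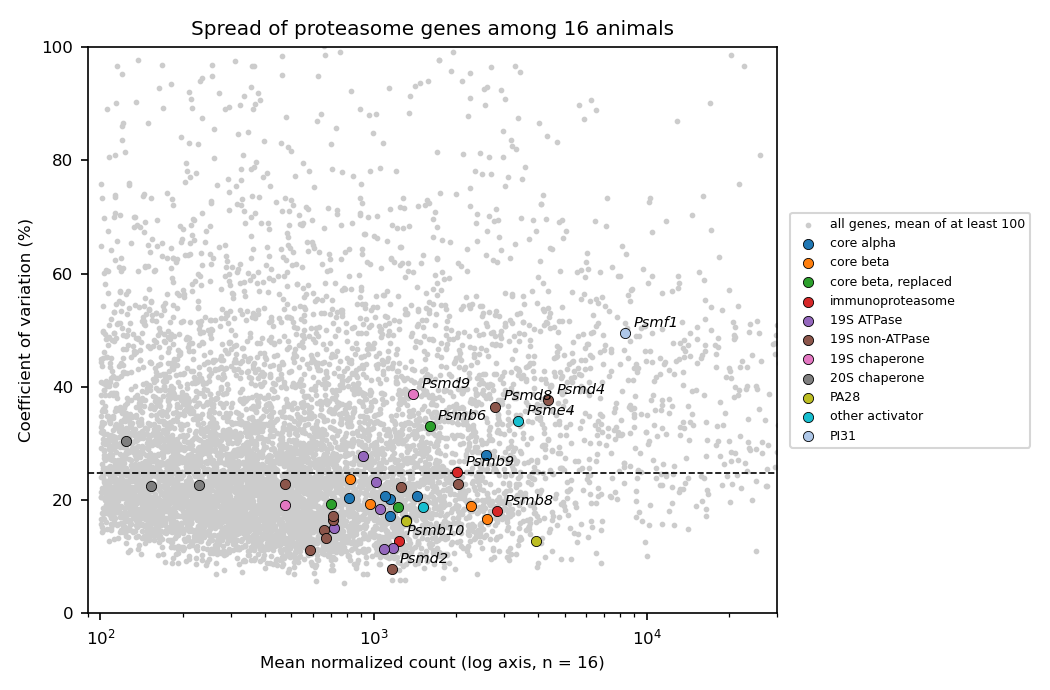
CV among the 16 libraries (percent, linear axis) against the mean normalized count (log axis) for the 45 proteasome genes with a mean of at least 100 (coloured by role) and for all genes at that level (grey; some grey points lie beyond the axes). The dashed line is the all-gene median of 24.8%, and 35 of the 45 members lie below it.

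Members that were scarce in blood were accounted for separately. Psma8 had a mean of 5.93 normalized counts and Psmb11 of 0.884. Neither passed the filter on low counts that edgeR applied before testing, so 48 of the 50 members were tested below. Psmg3, Psmc3ip and Psmd10 were tested, with means of 83.9, 38.3 and 27.0. Psma3l had 229 ± 54.6 (SD, n = 16), but its sequence is close to that of Psma3 and counts could be split between them.

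The members of the core particle moved with each other. Over 16 libraries, the median of the 21 pairwise Pearson r values of log2 levels was 0.73 among the alpha subunits and 0.76 among the constitutive beta subunits. The closest pair was Psma2 with Psma5, at 0.98. Among the 15 pairs of regulatory ATPases the median was 0.46, and among the 55 pairs of other regulatory subunits it was 0.16, with Psmd1 and Psmd3 at -0.68 and Psmd4 and Psmd8 at 0.92. These r values are descriptions over libraries that share cell makeup and scaling. Control 4 had the lowest level of 18 of the 45 members (40.0%), while it was the lowest library for 8.89% of all genes. Control 8 was highest for 12 members (26.7%), against 15.8% of all genes. The heat map shows the low column of control 4 running through the alpha subunits, the beta subunits and the ATPases, and a set of rows in the regulatory particle that went its own way.

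**Figure D2:**
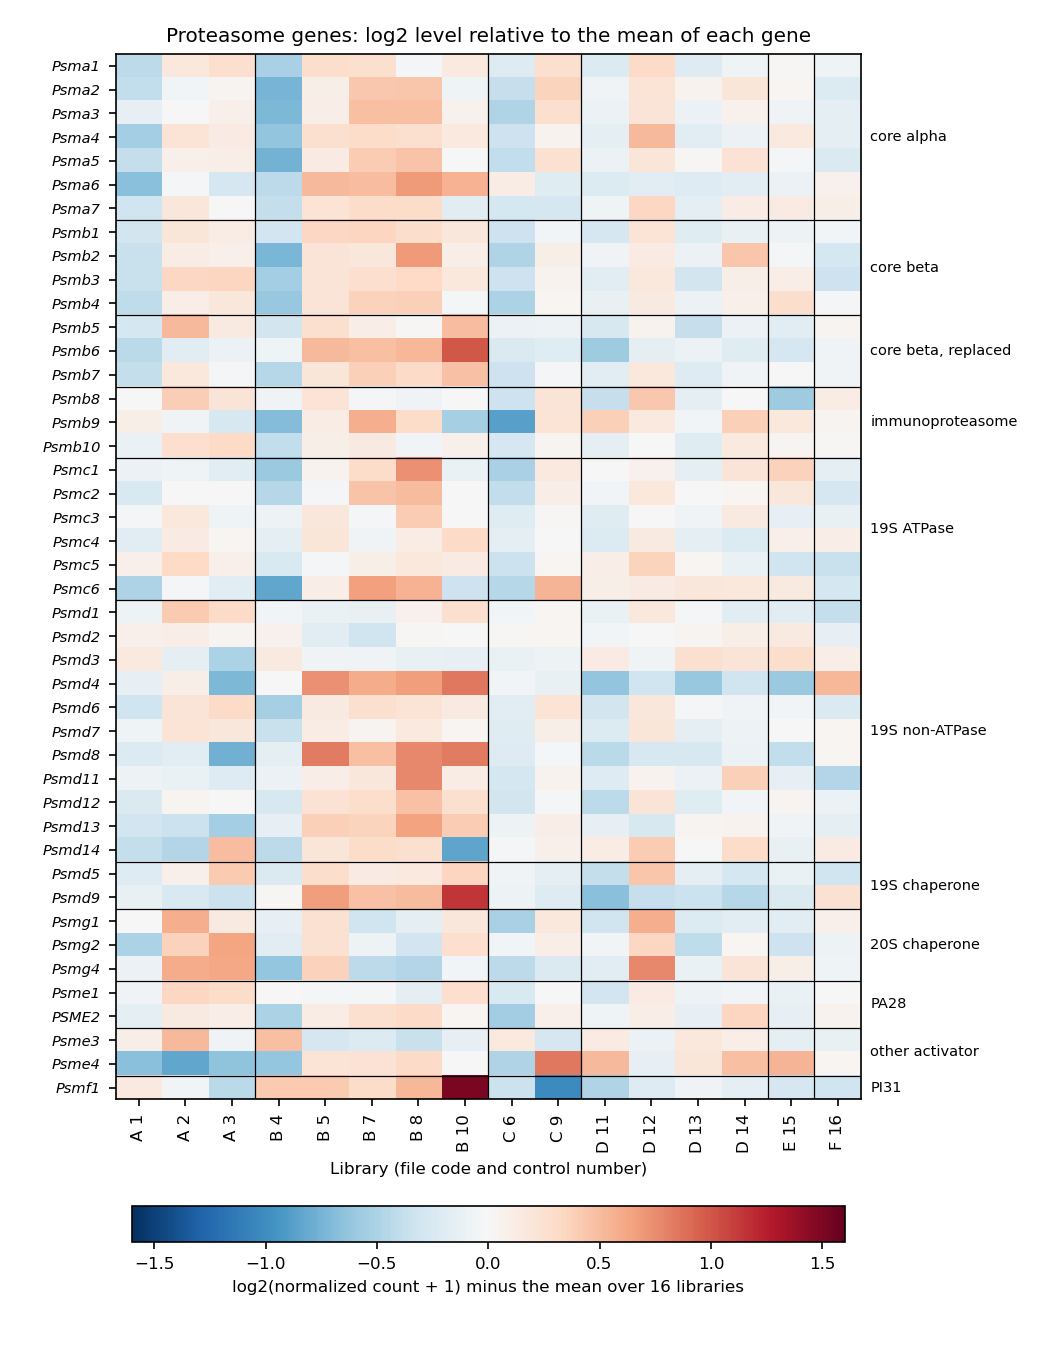
Level of each proteasome gene in each library as log2(normalized count + 1) minus the mean of the gene over 16 libraries (colour, blue lower and red higher). Rows are grouped by role and columns by file code with the control number; Psmd4, Psmd8, Psmd9, Psmb6 and Psmf1 are red in controls 5, 7, 8 and 10 of code B.

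The 3 immunoproteasome subunits were present in every library, and how closely they moved together depended on the scaling. Psmb8, the counterpart of Psmb5, had 1865 normalized counts in control 15, a median of 2764 and 3740 in control 12. Psmb9, the counterpart of Psmb6, had 1072 in control 6, a median of 2094 and 2924 in control 7. Psmb10, the counterpart of Psmb7, had 931 in control 4, a median of 1254 and 1521 in control 3. The subunits they replace were also present throughout. Psmb5 had 531 in control 13, a median of 674 and 980 in control 2, Psmb6 had 1038 in control 11, a median of 1415 and 3072 in control 10, and Psmb7 had 882 in control 4, a median of 1197 and 1675 in control 10. Of the PA28 genes, Psme1 had 3141 in control 11, a median of 3844 and 4909 in control 2, and Psme2 (PSME2 in the files) had 881 in control 6, a median of 1365 and 1639 in control 14. Among the 3 immunoproteasome genes a different library was lowest and a different library highest for each. The CV was 18.1% for Psmb8, 25.0% for Psmb9 and 12.8% for Psmb10.

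Relations among subunits were tested by permutation (two-sided, 100000 resamples, n = 16), with p adjusted over 8 relations. Psmb8 and Psmb9 gave Pearson r = 0.08 (permutation p = 0.783, adjusted p = 0.783) and Spearman rho = -0.11 (permutation p = 0.680, adjusted p = 0.680). For Psmb8 and Psmb10 r was 0.48 (permutation p = 0.0580, adjusted p = 0.116) and rho 0.56 (permutation p = 0.0241, adjusted p = 0.0644). For Psmb9 and Psmb10 r was 0.41 (permutation p = 0.117, adjusted p = 0.187) and rho 0.24 (permutation p = 0.370, adjusted p = 0.49). Without controls 15 and 12, the pair farthest from the median of Psmb8, its r with Psmb9 was 0.14 and its r with Psmb10 0.72 (adjusted permutation p = 0.0306). Without controls 6 and 4 the r of Psmb9 with Psmb10 was -0.22. Centred within file codes, over the 14 libraries of codes A to D, the r values were 0.22, 0.55 and 0.50, of which none passed the threshold. In this and the later centred tests the values were shuffled over all 14 libraries and not within codes. The centred p can therefore be too small. On total-count CPM, in place of median-ratio scaling, the r values were 0.44, 0.78 (adjusted permutation p = 0.000987) and 0.65 (adjusted permutation p = 0.0112), so Psmb8 with Psmb10 and Psmb9 with Psmb10 then passed. The activator genes Psme1 and Psme2 gave r = 0.33 (permutation p = 0.206, adjusted p = 0.274) and rho = 0.29 (permutation p = 0.272, adjusted p = 0.434), with 0.31 centred within codes, 0.27 without controls 2 and 3 and 0.69 on total-count CPM (adjusted permutation p = 0.00668).

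Against the subunits they replace, Psmb10 and Psmb7 were correlated, with r = 0.65 (permutation p = 0.00566, adjusted p = 0.0432) and rho = 0.64 (permutation p = 0.00916, adjusted p = 0.0366). The r was 0.86 centred within codes (n = 14, adjusted permutation p = 0.000880, which can be too small as said above) and 0.43 without controls 4 and 6 (adjusted permutation p = 0.240), so the call was lost without those. Psmb8 and Psmb5 gave r = 0.56 (permutation p = 0.0229, adjusted p = 0.0611), rho = 0.72 (permutation p = 0.00234, adjusted p = 0.0187), 0.56 centred within codes and 0.63 without controls 15 and 12. Psmb9 and Psmb6 gave r = -0.08 (permutation p = 0.783, adjusted p = 0.783), rho = -0.14 (permutation p = 0.60, adjusted p = 0.680), 0.0006 centred within codes and -0.29 without controls 6 and 4. Psmb5 and Psmb6, both constitutive, gave r = 0.62 (permutation p = 0.0108, adjusted p = 0.0432), rho = 0.51 (permutation p = 0.0473, adjusted p = 0.0946), 0.72 centred within codes and 0.66 without controls 2 and 10. On TMM CPM their r was 0.59 (adjusted permutation p = 0.0662) and on total-count CPM 0.022 (adjusted permutation p = 0.938), so this relation depended on the scaling. On total-count CPM Psmb8 with Psmb5 gave 0.78 and passed (adjusted permutation p = 0.000987), and on TMM CPM Psmb10 with Psmb7 gave 0.63 and did not (adjusted permutation p = 0.0660). Leaving out 1 library at a time, the adjusted permutation p of Psmb5 with Psmb6 no longer passed in 10 of 16 cases (each of controls 1, 4, 5, 6, 7, 9, 10, 11, 14 and 16) with r between 0.45 and 0.80, and that of Psmb10 with Psmb7 in 8 of 16 (controls 1, 4, 5, 6, 7, 9, 11 and 16) with r between 0.55 and 0.74.

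Psmb9 and Psmb8 also differed in the genes whose pattern was most like theirs among 8373 genes, ranked by Pearson r of log2 levels over 16 libraries. Closest to Psmb9 were Rpn1 (0.92; ribophorin I of the endoplasmic reticulum, not the proteasome subunit that shares the name), Eif4ebp1 (0.91), Fam82b (0.89), Snrpc (0.89) and 2610034M16Rik (0.89). Irf1, a transcription factor of the interferon response, was at 0.81 to Psmb9 (position 108), the peptide transporter gene Tap1 at 0.75 (position 349) and Psme2 at 0.75 (position 391). Among 11 antigen processing genes the r to Psmb9 ran from -0.23 (Erap1) to 0.81 (Irf1), with Tap2 at 0.47 and Calr at -0.09. Closest to Psmb8 were Cdc26 (0.84), Psmg1 (0.84), Zfp511 (0.81), Rpl6 (0.79) and Mrpl28 (0.78), and to Psmb8 Irf1 was at -0.21, Tap1 at -0.32, Psme1 at 0.72 and Psme2 at 0.48. Erap1, which trims peptides, was at 0.61 to Psmb8 and -0.23 to Psmb9, and Psme1 was at -0.19 to Psmb9. Closest to Psmb10 were Mrpl48 (0.90), Pigu (0.85), Cox14 (0.85), Atp5e (0.84) and Ndufb5 (0.83), with Psme2 at 0.78 and Irf1 at 0.13.

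The promoters of the 3 immunoproteasome genes are shown to set the letters before these genes side by side. They are the 250 bases before the start of each gene in RefSeq (build GRCr8), 5′ to 3′ on the strand of the gene, and capitals mark matches to GAAA, any 2 bases and GAAA again, the core of the interferon response element, searched on both strands from 250 bases before to 50 after the start.
Psmb8 (chr20:4657032-4657281, minus strand): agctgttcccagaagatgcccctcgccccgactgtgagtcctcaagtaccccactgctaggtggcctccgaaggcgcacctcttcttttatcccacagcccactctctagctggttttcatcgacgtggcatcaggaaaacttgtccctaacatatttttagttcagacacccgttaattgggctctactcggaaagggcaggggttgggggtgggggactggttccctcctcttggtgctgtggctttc
Psmb9 (chr20:4668750-4668999, plus strand): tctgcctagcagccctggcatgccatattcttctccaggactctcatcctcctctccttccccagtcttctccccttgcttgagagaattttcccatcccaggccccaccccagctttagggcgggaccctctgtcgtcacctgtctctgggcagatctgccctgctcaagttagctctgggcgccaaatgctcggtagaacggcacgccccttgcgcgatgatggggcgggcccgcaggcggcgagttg
Psmb10 (chr19:50743293-50743542, minus strand): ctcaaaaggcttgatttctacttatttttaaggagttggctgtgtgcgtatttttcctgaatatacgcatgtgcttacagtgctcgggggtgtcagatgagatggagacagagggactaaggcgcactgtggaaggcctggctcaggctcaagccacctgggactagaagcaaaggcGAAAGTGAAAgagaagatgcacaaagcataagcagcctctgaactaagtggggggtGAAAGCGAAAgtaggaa
Psmb10 held 2 such matches, starting 73 and 17 bases before the gene start. Psmb8 held 1 on the other strand, which starts 4 bases before the gene start and runs across it, so it is not in capitals. None was found in the window of Psmb9. The letters occurred in 7 of the 44 members with a promoter entry (15.9%: Psma4, Psmb10, Psmb3, Psmb8, Psmd7, Psme2 and Psmg4) and in 3.92% of all 33469 promoters. A match is a description of the letters.

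Each immunoproteasome subunit was then set against the subunit it replaces within the same library, as the log2 ratio of the 2 counts, which no scaling between libraries can move. The size of such a ratio depends on the lengths of both transcripts, but its variation among animals does not. The ratio of Psmb8 to Psmb5 was 2.02 ± 0.25 (SD, n = 16), from 1.53 in control 10 to 2.40 in control 12. The ratio of Psmb10 to Psmb7 was 0.02 ± 0.20 (SD, n = 16), from -0.37 in control 10 to 0.35 in control 3. The ratio of Psmb9 to Psmb6 was 0.34 ± 0.60 (SD, n = 16), from -1.18 in control 10 to 1.29 in control 11, a 5.55-fold range against 1.82-fold and 1.64-fold for the other two. Control 10, the library with the red cell and heart muscle extremes, was thus lowest in all 3, and the part of those markers was not tested. In control 10 the normalized counts of Psmb6 (3072) and Psmb7 (1675) were the highest of any library, and that of Psmb5 (968) the second highest. Psmb8 (2798) and Psmb10 (1297) were above their medians there, and Psmb9 (1354) was below its own. Summed, Psmb8, Psmb9 and Psmb10 made up 63.4% ± 5.14 (SD, n = 16) of the counts of all 6 genes, from 48.8% in control 10 to 69.3% in control 1.

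**Figure D3:**
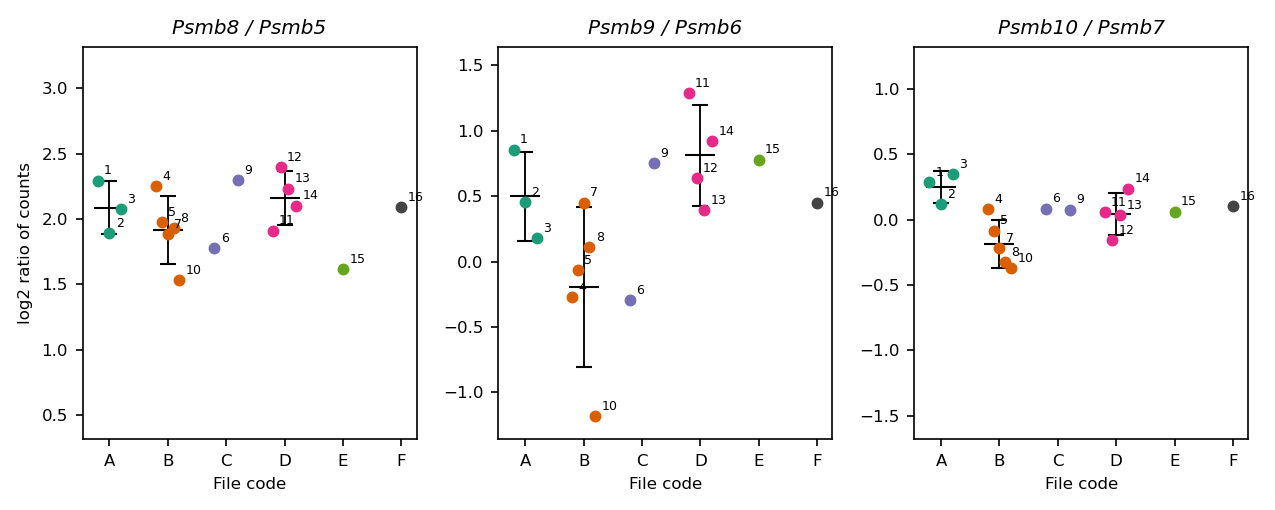
log2 ratio of the counts of each immunoproteasome subunit to those of the constitutive subunit it replaces, by file code; points are libraries with their control numbers, and bars show mean ± SD for codes A (n = 3), B (n = 5) and D (n = 4). All panels span the same number of log2 units, and control 10 is the lowest point in each.

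Among codes A, B and D, 52.2% of the variation of the Psmb9 to Psmb6 ratio lay between codes (exact permutation test over 27720 assignments of the 12 libraries, p = 0.0239, adjusted over 3 ratios p = 0.0359). Its mean was 0.50 ± 0.34 (SD, n = 3) in code A, -0.19 ± 0.61 (SD, n = 5) in code B and 0.81 ± 0.38 (SD, n = 4) in code D. For Psmb10 to Psmb7 the share between codes was 60.1% (exact permutation p = 0.0229, adjusted p = 0.0359), with 0.25 ± 0.12 in code A (SD, n = 3), -0.18 ± 0.18 in code B (SD, n = 5) and 0.04 ± 0.16 in code D (SD, n = 4). For Psmb8 to Psmb5 it was 23.1% (exact permutation p = 0.302, adjusted p = 0.302). The adjusted exact p of Psmb9 to Psmb6 passed the threshold only with all 12 libraries or without control 7, and that of Psmb10 to Psmb7 only with all 12 or without control 4 or 14, so neither difference among codes held up to leaving out single libraries.

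The ratios were also set against 4 marker genes, of which Alas2 encodes the first enzyme of heme synthesis in red cell precursors, Cd3e a T cell receptor chain, Cd79b a B cell receptor chain and Ccr1 a chemokine receptor of monocytes and neutrophils. In bulk blood, fewer cells of a type and less RNA per cell cannot be told apart. Of 12 relations, 1 passed: Psmb9 to Psmb6 was lower where Alas2 was higher, with r = -0.74 (permutation p = 0.00102, adjusted p = 0.0122) and rho = -0.72 (permutation p = 0.00233, adjusted p = 0.0280). Centred within codes r was -0.44 (adjusted permutation p = 0.271), and without controls 10 and 11 it was -0.50 (adjusted permutation p = 0.525), so the call was lost in both cases while the sign stayed. Controls 10 and 11 are the extremes of the ratio itself. Leaving out 1 library, r lay between -0.77 and -0.61 and no longer passed only without control 10 (-0.61). Without controls 2, 8 and 12 it was -0.73 (adjusted permutation p = 0.0464). Taken singly, Psmb6 had a log2 change of 0.53 ± 0.09 (SE, adjusted p = 0.000804 in edgeR) for each doubling of Alas2. Psmb9 had -0.14 ± 0.15 (SE, adjusted p = 0.724 in edgeR). The part of each gene in the relation of their ratio was not tested. The r of Psmb10 to Psmb7 with Alas2 was -0.62 (permutation p = 0.00977, adjusted p = 0.0586) with rho = -0.40 (permutation p = 0.125, adjusted p = 0.502), -0.59 centred within codes and -0.38 without controls 10 and 8. The other 10 relations had r between -0.38 and 0.35.

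Between file codes, few members differed. In edgeR's quasi-likelihood test with Benjamini-Hochberg adjustment, fitted on the 12 libraries of codes A, B and D together, no gene of 12952 passed an adjusted p of 0.05 between A and B (0%), and 1755 genes (13.6%), 8 of them members, had an unadjusted p under 0.05. Between A and D no gene passed either (0%), with 5.41% of genes and 1 member at an unadjusted p under 0.05. DESeq2 called 563 genes between A and B, 6 of them members, and 14 genes but no member between A and D, limma-voom called 7 genes and no gene, and without control 4 edgeR called 506 genes between A and B (3.93%), 7 of the 48 members among them (14.6%). Between B and D, 298 genes passed (2.3%), 293 of them lower in D (2.26%) and 5 higher (0.0386%), and 2 of the 48 members tested (4.17%) were among the lower ones.

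Those were Psmd4 and Psmd9. Psmd4 had 4108 to 7362 normalized counts in the 5 libraries of code B (6184 ± 1242, SD) and 2632 to 3280 in the 4 of code D (2970 ± 358, SD). Its log2 change from B to D was -1.05 ± 0.22 (SE), with an adjusted p of 0.0354 in edgeR. Psmd9 had 1336 to 2914 in B (2009 ± 578, SD, n = 5) and 834 to 1044 in D (967 ± 94.1, SD, n = 4), a change of -1.04 ± 0.21 (SE) with an adjusted p of 0.0307 in edgeR. Next came Psmd8 at -0.84 ± 0.22 and Psmb6 at -0.76 ± 0.20, which did not pass (adjusted p = 0.0763 and 0.0830 in edgeR). The immunoproteasome genes gave 0.21 ± 0.25 for Psmb9, -0.01 ± 0.16 for Psmb10 and -0.00 ± 0.17 for Psmb8 (log2, D against B), far from the threshold. The calls were fragile. Psmd4 lost its call without any of controls 5, 7, 8, 10, 11, 12, 13 or 14, where its change lay between -1.10 and -0.97, and Psmd9 lost its call without any of controls 5, 7, 10, 11, 12, 13 or 14, where it lay between -1.09 and -0.87. With total-count scaling neither passed, at -0.50 for Psmd4 and -0.48 for Psmd9, in a fit whose all-gene median change was 0.53.

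The red cell genes Alas2 and Slc4a1 moved the same way between these codes. Alas2 had 445032 ± 140879 (SD, n = 5) in code B and 162610 ± 20880 (SD, n = 4) in code D, and Slc4a1, the anion exchanger of the red cell membrane, had 84114 ± 21202 and 30860 ± 3702. Over all 16 libraries Slc4a1 had a slope of 0.97 ± 0.16 (SE) on Alas2. How far the red cell share accounts for the difference in Psmd4 and Psmd9 between B and D was not tested.

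Across all 16 libraries, 6 members rose with Alas2. The slope is the log2 change of a gene for each doubling of Alas2, whose level ran from 136028 in control 11 to 631489 in control 10. In edgeR, 839 of 10919 genes had a slope past an adjusted p of 0.05 (7.68%), 812 upward (7.44%) and 27 downward (0.247%). Of the 48 members tested, 6 (12.5%) had an upward slope and none a downward one. The median slope was 0.03 over the members and -0.06 over all genes tested.

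Psmd9 had a slope of 0.70 ± 0.07 (SE, adjusted p = 6.4e-06 in edgeR). Its level was 834 in control 11, 1183 at the median and 2914 in control 10, the same libraries that were lowest and highest in Alas2. Psmd4 had a slope of 0.74 ± 0.09 (SE, adjusted p = 2.13e-05 in edgeR), with 2484 in control 3, a median of 3868 and 7362 in control 10. Psmd8, a lid subunit of the regulatory particle, had a slope of 0.61 ± 0.10 (SE, adjusted p = 0.000408 in edgeR) and ran from 1545 in control 3 through a median of 2357 to 4706 in control 5. Psmb6, the constitutive catalytic subunit with caspase-like activity, had 0.53 ± 0.09 (SE, adjusted p = 0.000804 in edgeR) and ran from 1038 in control 11 through 1415 to 3072 in control 10. Psma6, an alpha subunit, had 0.42 ± 0.10 (SE, adjusted p = 0.0135 in edgeR), from 1561 in control 1 through 2271 to 3988 in control 8. Psmf1 had 0.61 ± 0.15 (SE, adjusted p = 0.0140 in edgeR).

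The 6 came from different parts of the complex, and their neighbours in it did not pass. Psmd13 at 0.28 ± 0.10 was nearest to the threshold (adjusted p = 0.133 in edgeR). The other catalytic constitutive subunits had 0.20 ± 0.10 for Psmb5 and 0.20 ± 0.10 for Psmb7, and the 6 ATPases lay between -0.05 and 0.12. Of the immunoproteasome genes Psmb8 had 0.03, Psmb10 -0.01 and Psmb9 -0.14, and Psmd2 had -0.12 ± 0.07. Those slopes were not tested against the slopes of the 6.

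**Figure D4:**
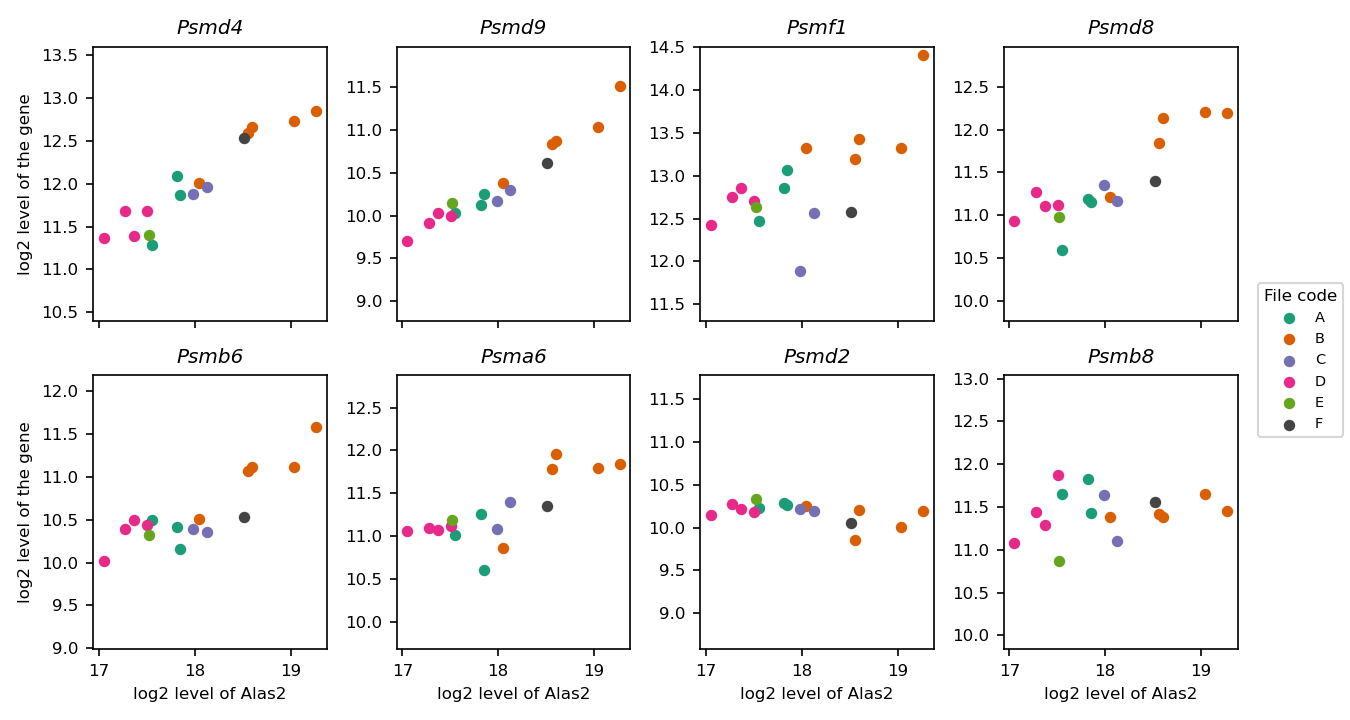
log2 level of 8 proteasome genes against the log2 level of Alas2, 1 point per library, coloured by file code; every panel spans the same number of log2 units. The first 6 genes rise with Alas2, with slopes of 0.42 to 0.74, while Psmd2 and Psmb8 have slopes of -0.12 and 0.03 that did not pass the test.

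Alas2 also varied between file codes, from 271109 to 631489 in code B and from 136028 to 185811 in code D. With file code as a factor the slopes were 0.80 for Psmd9, 0.69 for Psmd4, 0.76 for Psmd8, 0.67 for Psmb6, 0.54 for Psma6 and 0.82 for Psmf1, of a similar or larger size, but no member and no gene of 10919 passed (873 genes and 6 members had an unadjusted p under 0.05). With total-count scaling no member passed, and the slopes were 0.57 for Psmd9 and 0.57 for Psmd4 against an all-gene median slope of -0.41. Without control 10, Psmf1 fell to 0.34 and, like Psma6 at 0.42, no longer passed. In limma-voom Psmf1 had a slope of 0.56 and did not pass (adjusted p = 0.0537 in limma-voom), which left 5 members called (10.4%, against 7.33% of all genes). Without controls 2, 8 and 12 the slopes of the 6 were 0.73 for Psmd4, 0.69 for Psmd9, 0.61 for Psmf1, 0.57 for Psmd8, 0.51 for Psmb6 and 0.38 for Psma6, all past the threshold in edgeR.

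Proteasome partners that the symbol rule does not catch were read from a list of 19 symbols, of which Paaf1 was not found and Pomp, the core maturation factor, had 2 entries with equal values. Of these 19 entries 3 had an upward slope on Alas2 and none a downward one, with a median of 0.08. Among them were Ubqln4 (0.71 ± 0.08, SE), which ferries ubiquitinated proteins to the proteasome, and Adrm1 (0.37 ± 0.09, SE), a ubiquitin receptor on it. Of the 11 antigen processing genes tested, 1 had an upward slope, the chaperone gene Calr (0.53 ± 0.08, SE), and none a downward one, with a median of -0.11. Over all genes tested the upward share on Alas2 was 7.44%, and 1 of 11 is close to it. Neither list was tested against that share.

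Psmb6 and Psmd9 were the only ones of the 6 whose promoters matched, and were chosen for that, with no match in the windows of Psmd4, Psmd8, Psma6 and Psmf1. Both are shown with capitals at matches to TGACNNNGC, the core of the antioxidant response element bound by the factors Nfe2l1 and Nfe2l2 that are known to drive proteasome genes (same source, build and window as above, both strands).
Psmb6 (chr10:55737638-55737887, plus strand): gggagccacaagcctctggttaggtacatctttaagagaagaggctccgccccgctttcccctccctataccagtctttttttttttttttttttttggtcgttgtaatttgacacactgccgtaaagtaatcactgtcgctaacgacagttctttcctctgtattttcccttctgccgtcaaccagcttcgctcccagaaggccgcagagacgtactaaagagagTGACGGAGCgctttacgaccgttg
Psmd9 (chr12:39018265-39018514, minus strand): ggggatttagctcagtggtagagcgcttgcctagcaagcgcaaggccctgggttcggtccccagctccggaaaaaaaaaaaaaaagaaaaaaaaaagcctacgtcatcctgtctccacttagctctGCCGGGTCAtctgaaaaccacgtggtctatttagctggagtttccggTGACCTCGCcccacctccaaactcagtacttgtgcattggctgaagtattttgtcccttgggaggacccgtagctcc
Psmb6 held 1 match, 24 bases before the gene start. Psmd9 held 2, at 124 bases before it on the other strand and 77 before it. The letters occurred in 8 of the 44 member promoters (18.2%: Psma3, Psmb2, Psmb5, Psmb6, Psmd1, Psmd3, Psmd9 and Psme4) and in 12.1% of all promoters. The slopes of Nfe2l1 and Nfe2l2 themselves on Alas2 were -0.08 ± 0.12 and -0.15 ± 0.35 (SE), and neither passed. Whether either factor acted on these genes was not tested. AGATAA, letters bound by the red cell factor GATA1 and chosen after the slopes were seen, occurred in 5 member promoters (11.4%: Psma1, Psmb2, Psmb7, Psmd3 and Psmd7) and in 11.6% of all promoters. None of those 5 was among the 6 that rose with Alas2.

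With Ccr1, 8 members rose and none fell in edgeR over all 16 libraries. Ccr1 had 1086 normalized counts in control 2 and 22339 in control 8, a 20.6-fold range. In edgeR 3213 of 10919 genes had a slope past the threshold (29.4%), 1724 upward (15.8%) and 1489 downward (13.6%), and 8 of 48 members upward (16.7%) is close to that share of all genes. The neutrophil gene S100a9 rose with Ccr1 too (1.06 ± 0.10, SE), Cd3e and Cd79b went the other way (-0.25 ± 0.06 and -0.25 ± 0.08, SE), and the part of each cell type in these slopes was not tested. The median slope was 0.04 over the members and -0.02 over all genes tested. The largest was that of Psme4, whose product PA200 caps the core in the nucleus, at 0.33 ± 0.06 (SE, adjusted p = 0.000655 in edgeR). Psme4 had 1803 in control 2, a median of 3449 and 5748 in control 9. Psmb9 was the only immunoproteasome gene with a slope past the threshold, 0.20 ± 0.06 (SE, adjusted p = 0.0161 in edgeR), against -0.06 for Psmb8 and -0.01 for Psmb10, a difference that was not tested. The ATPases Psmc6, Psmc1 and Psmc2 had 0.22, 0.19 and 0.13, the regulatory subunits Psmd13 and Psmd11 0.16 and 0.15, and the alpha subunit Psma2 0.15.

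With file code as a factor 5 members passed (10.4%, against 26.1% of all genes), Psmb9 at 0.27, Psme4 at 0.26, Psmc6 at 0.25, Psmc1 at 0.22 and Psmd11 at 0.14. With total-count scaling only Psme4 did, at 0.34 (2.08% of members, against 10.0% of all genes), and without controls 2, 8 and 12 it was Psme4 (0.38), Psmc6 (0.31), Psmb9 (0.30), Psmc1 (0.20) and Psma2 (0.19), again 10.4% of members, against 13.6% of all genes. Without control 8 alone 4 members passed (8.33%, against 17.8% of all genes), since Psma2, Psmc2, Psmd11 and Psmd13 lost their calls. These shares of all genes count both directions, while the members called were all upward. The upward genes alone were 1636 of 10919 with file code as a factor and 1020 of 10919 with total-count scaling. They were 1203 of 10603 without controls 2, 8 and 12, and 1377 of 11012 without control 8. Psma2 also lost its call without control 7 or 9 and Psmc2 without control 4, 6 or 7. DESeq2 called 10 members upward and 1 downward (22.9%, against 33.4% of all genes). In edgeR 1 member had a downward slope without control 13, and 1 without control 16. Of the 11 antigen processing genes 3 had an upward slope on Ccr1 and none a downward one (median 0.09), among them Irf1 at 0.32 ± 0.06 and Tap1 at 0.26 ± 0.08 (SE). Of the partners 3 of 19 had an upward slope and none a downward one (median 0.04), namely Nfe2l2 at 0.69 ± 0.06, Akirin2, which carries proteasomes into the nucleus, at 0.25 ± 0.03 and Rad23b at 0.15 ± 0.04 (SE). The upward share on Ccr1 over all genes tested was 15.8%, and 3 of 19 is close to it. Neither list was tested against that share.

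**Figure D5:**
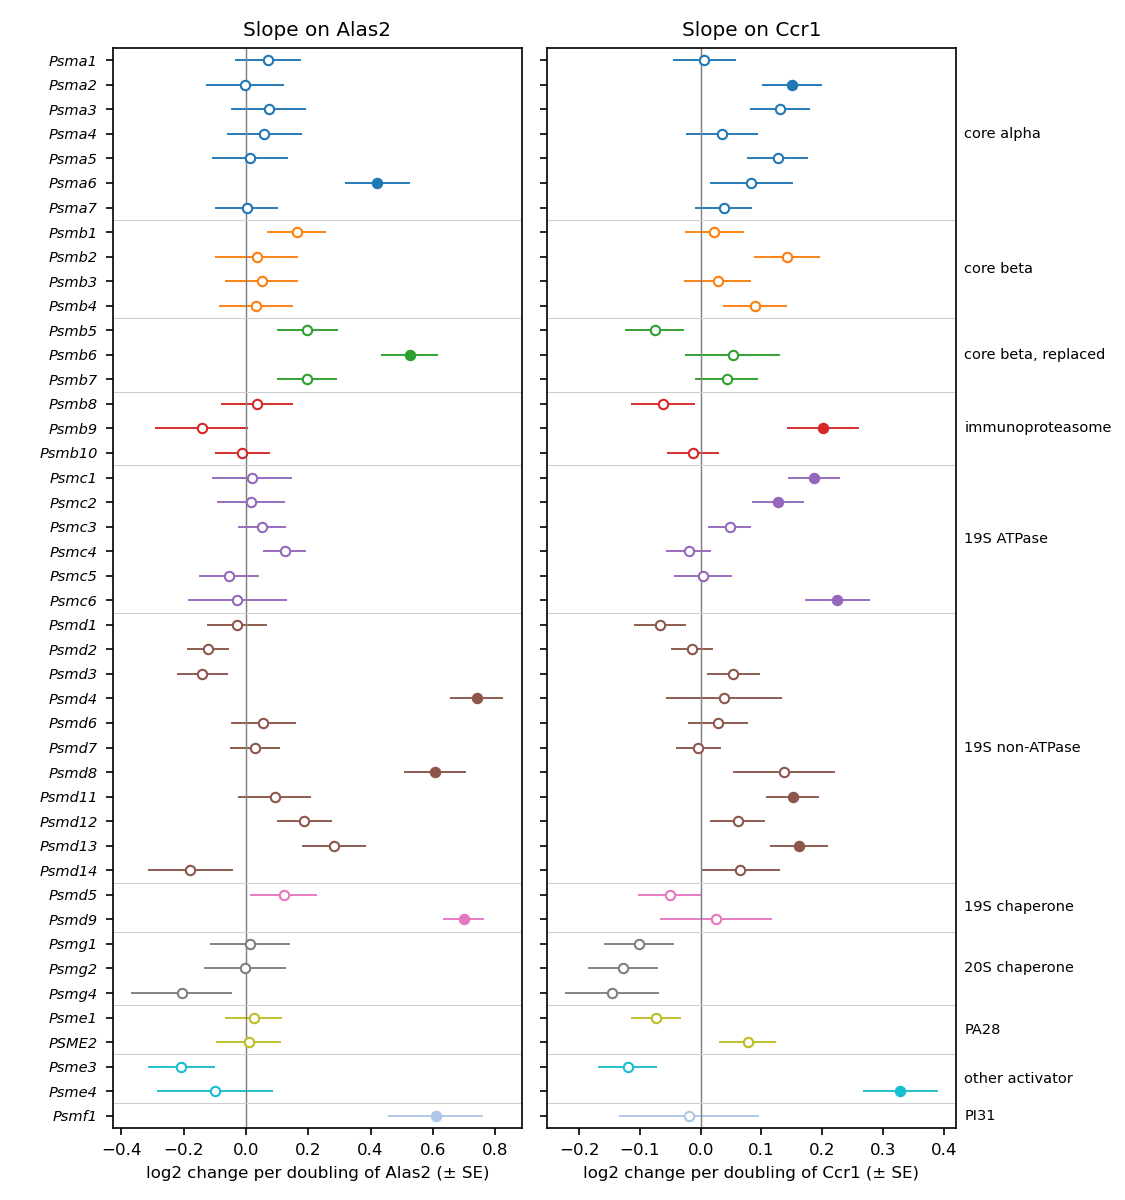
Slope of each proteasome gene on Alas2 (left) and on Ccr1 (right), as the log2 change for each doubling of the marker ± SE from edgeR over 16 libraries, grouped by role; the panels have different x axes. Filled points passed an adjusted p of 0.05: 6 genes on Alas2 and 8 on Ccr1.

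With the lymphocyte markers few members passed. On Cd3e, 1966 of 10919 genes had a slope past the threshold in edgeR (18%), 862 of them upward (7.89%) and 1104 downward (10.1%), and 2 members had an upward slope, both core assembly chaperones: Psmg4 at 0.67 ± 0.21 (SE, adjusted p = 0.0336 in edgeR) and Psmg1 at 0.48 ± 0.15 (SE, adjusted p = 0.0411 in edgeR). Psmg4 had 77.4 normalized counts in control 4, a median of 113 and 203 in control 12, and Psmg1 had 156 in control 6, a median of 215 and 337 in control 2. The third chaperone, Psmg2, had 0.47 ± 0.16 (SE, adjusted p = 0.0553 in edgeR). The 2 calls were lost with file code as a factor, without the filter on low counts and without controls 2, 8 and 12. Those controls include the libraries with liver and thymus markers and both extremes of Cd3e, lowest in control 8 and highest in control 12. Without them no gene of 10603 passed on Cd3e, and without control 8 alone 79 of 11012 genes did (0.717%). Without control 6 alone 2 members had an upward slope and 4 a downward one (12.5%, against 27.6% of all genes). A downward slope of 1 member also passed without control 10 and without control 12. The call of Psmg4 was also lost without any 1 of controls 2, 3, 7, 8, 9 or 12, and that of Psmg1 without any 1 of controls 2, 3, 6, 7, 8, 10, 11, 12, 13 or 15. Of the partners 3 of 19 entries had a downward slope on Cd3e and none an upward one (median -0.02: Nfe2l2, Akirin2 and Rad23b), beside a downward share of 10.1% over all genes. Of the 11 antigen processing genes none passed (median -0.37).

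On Cd79b, 492 of 10919 genes passed in edgeR (4.51%), 295 of them upward (2.7%) and 197 downward (1.8%). No member did, with 2811 genes (25.7%) and 4 members at an unadjusted p under 0.05, while DESeq2 called 1 (2.08%, against 13.2% of all genes) and limma-voom none. None of the 19 partner entries and none of the 11 antigen processing genes passed on Cd79b (medians -0.01 and -0.34). With total-count scaling 17 members (35.4%) had an upward slope on Cd3e and 19 (39.6%) on Cd79b, against 44.8% and 35.0% of all genes, in fits whose all-gene median slopes were 0.39 and 0.32.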

How the data were processed

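RNA from 16 whole blood samples was globin-depleted and sequenced by the authors (TruSeq, 51-base paired ends). Per the labels and the study's methods, base calls came from CASAVA 1.8.2, clipped reads were aligned with Bowtie 0.12.9 to rat transcripts of Ensembl release 70 (rn5), and RSEM 1.2.0 gave the deposited expected counts per gene. Between 19.3% and 27.1% of values in a file were not whole, so they were rounded. Default RSEM settings were stated, so reads of overlapping genes on opposite strands may not be told apart. Gene lists differed between files, and the 18031 genes in all 16 of a union of 26405 were used. No 2 libraries agreed within counting noise (lowest chi-square per degree of freedom 48).

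The samples form 1 group, and p-values measure the spread between these samples. Members, lists and tests were chosen with earlier results of these data known. The rule for genes shown by value was the immunoproteasome genes, the subunits they replace, the PA28 genes, up to 3 called members per marker and direction, the lowest and highest CV, and the 5 genes most like each immunoproteasome gene. Other members were named after their values were seen. Normalized counts used median-ratio size factors and log2 levels a pseudocount of 1. Fits used edgeR 4.0.16 (quasi-likelihood, TMM, filterByExpr) over all genes with Benjamini-Hochberg adjustment, and a threshold of 0.05. Alternatives were DESeq2 1.42.0 and limma 3.58.1 (voom), other scalings, no filter, file code as a factor, globin genes left out, leaving out each library and, added after seeing the data, leaving out controls 2, 8 and 12. Fits and permutation tests were tested on simulated data. A count of 0 allows up to 3 counts, 0.0962 to 0.140 per 1000000 counts here. Such limits cover counting error only. Of the 50 members, 44 matched a RefSeq promoter (GRCr8) by symbol. Values of some listed genes are not reported here.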

Additional observations from a re-analysis of the deposited data

Results flagged for a closer look

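The share of counts taken by the 50 proteasome genes had a library far from the rest of its file code in both codes with enough libraries for the comparison. In code B (n = 5) control 4 had 0.266%, the highest, with the nearest library at 0.242% and a gap of 0.824 of the whole range. In code D (n = 4) control 12 had 0.340%, the highest, with the nearest at 0.276% and a gap of 0.834 of the range. Of 8 such comparisons, chance would flag about 0.4, or 1 in 20. Controls 4 and 12 also had the lowest globin percentages of their codes, 4.22% and 5.32%. With globin counts left out of the total, control 4 had 0.277% and the nearest library of its code, control 7, had 0.273%. Control 12 then had 0.359% and the nearest library of its code, control 13, had 0.321%. Control 12 was also the library with thymus and fat markers. The part of globin and of these markers in the share was not tested. Control 4 had the lowest normalized level of 18 of 45 members while its share of counts was the highest of its code.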

How the results depend on the processing

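No paired analysis was possible because the labels give a single group. Counts of members called, reported as 0 (A against B), 2 (B against D), 6 (Alas2), 2 (Cd3e), 0 (Cd79b) and 8 (Ccr1), changed as follows. DESeq2 called 6 (A against B), 5 (B against D), 5 (Cd3e) and 1 (Cd79b), which is 12.5%, 10.4%, 10.4% and 2.08% of members against 4.35%, 5.73%, 24.4% and 13.2% of all genes. The 5 on Cd3e were 4 upward and 1 downward. Total-count scaling gave 0 (B against D, against 0.0463% of all genes), 0 (Alas2, against 0.870%), 17 (Cd3e), 19 (Cd79b) and 1 (Ccr1), the last 3 with shares given above. The all-gene median shifted in these fits, as given above, except on Ccr1 (-0.04 against -0.02). File code as a factor gave 0 (Alas2), 0 (Cd3e) and 5 (Ccr1), leaving out the filter 0 (Cd3e), limma-voom 1 (Cd3e), and leaving out controls 2, 8 and 12 gave 0 (Cd3e, where no gene of 10603 passed) and 5 (Ccr1). In the same order, the shares of all genes in either direction were 0%, 13.6%, 26.1%, 9.43%, 16.9%, 0% and 13.6%. Leaving out 1 library gave 0 to 7 (A against B, 7 without control 4), 0 to 5 (B against D, 5 without control 4 and 0 without control 5, 7, 10, 11, 12, 13 or 14), 4 to 6 (Alas2), 0 to 6 (Cd3e, 6 without control 6 and 0 without control 2, 3, 7 or 8), 0 to 2 (Cd79b, 2 without control 13) and 4 to 11 (Ccr1). Without control 4 the calls were 14.6% of members against 3.93% of all genes (A against B) and 10.4% against 5.44% (B against D). On Cd3e without control 6, 2 members had an upward and 4 a downward slope, 12.5% against 27.6% of all genes. On Alas2 without control 10 the share was 8.33% against 4.95%, and on Cd79b without control 13 it was 4.17% against 9.55%. On Ccr1 the 11 were 22.9%, against 26.9% without control 2 and 25.6% without control 3. The median CV on total-count CPM was 28.0% (immunoproteasome), 23.0% (ATPases) and 22% (other regulatory subunits), against 31.6% for all genes.

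Among relations of subunits, TMM CPM gave r = 0.59 (Psmb5 with Psmb6) and 0.63 (Psmb10 with Psmb7), both short of the threshold. Total-count CPM gave 0.78 (Psmb8 with Psmb10), 0.65 (Psmb9 with Psmb10), 0.69 (Psme1 with Psme2) and 0.78 (Psmb8 with Psmb5), all past it, and 0.022 (Psmb5 with Psmb6), short of it. The direction of Psmb9 with Psmb6 turned when centred within codes (0.000599), and without the farthest pair of libraries that of Psmb9 with Psmb10 did (-0.22), where Psmb8 with Psmb10 (0.72) and Psmb8 with Psmb5 (0.63) passed and Psmb10 with Psmb7 (0.43) did not. For ratios, signs turned with total-count CPM for Psmb8/Psmb5 with Cd79b (0.19), Psmb9/Psmb6 with Cd3e (0.11) and with Cd79b (0.11), centred within codes for Psmb10/Psmb7 with Cd79b (-0.28), without the farthest pair for Psmb9/Psmb6 with Cd3e (0.0048), and without controls 2, 8 and 12 for Psmb8/Psmb5 with Cd3e (-0.042). Psmb9/Psmb6 with Alas2 was -0.44 centred and -0.50 without the farthest pair, and Psmb10/Psmb7 with Alas2 was -0.69, past the threshold, without controls 2, 8 and 12.

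Leaving out 1 library, r ranged from -0.15 to 0.19 (Psmb8 with Psmb9), 0.39 to 0.63 (Psmb8 with Psmb10), 0.45 to 0.80 (Psmb5 with Psmb6), 0.46 to 0.65 (Psmb8 with Psmb5), -0.22 to 0.21 (Psmb9 with Psmb6) and 0.55 to 0.74 (Psmb10 with Psmb7). It ranged from -0.023 to 0.39, -0.18 to 0.041 and -0.059 to 0.13 for Psmb8/Psmb5 with Cd3e, Cd79b and Ccr1, from -0.77 to -0.61 for Psmb9/Psmb6 with Alas2, and from -0.71 to -0.49 and -0.039 to 0.44 for Psmb10/Psmb7 with Alas2 and Cd3e. The share between codes ranged from 46.7% to 63.3% (Psmb9/Psmb6) and 52.0% to 74.1% (Psmb10/Psmb7). The causes of these changes were not tested. Of 1030 recomputed values, 832 kept their direction and side of the threshold. The fits cannot show small changes at this number of animals.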
